A study of Mus musculus with 3 samples.

Results

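Apolipoproteins are the protein parts of the particles that carry lipid outside cells. The genes described here are the apolipoprotein genes *Apoa1*, *Apoa2*, *Apoa4*, *Apob*, *Apoc1*, *Apoc2*, *Apoe*, and *Apom*, together with *Mttp*, which encodes the microsomal triglyceride transfer protein. They were chosen by symbol from the deposited array table, and all 9 were found among its 30854 symbols. RNA came from the embryonic region of wild-type mouse embryos at the early headfold (EHF) stage. The strain is given as Cd-1 in the sample labels and as ICR in the study's methods. It was hybridized to Illumina Mouse-6 bead arrays, 1 array for each of replicates 1, 2, and 3. These 3 arrays are the only group, with no treatment, mutant, or extraembryonic sample beside them. The labels name the tissue only as embryo, and the removal of the extraembryonic part is stated in the study's methods. Neither source settles whether an array holds 1 embryo or a pool, so the spread between arrays may hold biological and technical differences alike.

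Lipoprotein particles are built in the endoplasmic reticulum, where the transfer protein MTP loads lipid onto apolipoprotein B as it is made. Apolipoproteins of the A, C, E, and M classes ride on these particles or on high-density lipoprotein and guide the enzymes and receptors that unload them. The visceral endoderm (VE) is the epithelium that covers the mouse conceptus before gastrulation. In the postimplantation embryo it is the best-known site of apolipoprotein synthesis and passes maternal lipid to the cells inside. Liver and intestine take over this role later in life. The study reports that by the EHF stage VE cells of the embryonic region are scattered among definitive endoderm cells. A uniform VE remains over the extraembryonic region.

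Above background means here a detection p under 0.01 on each of the 3 arrays. The detection p is the share of negative-control beads with at least as high a signal. Median log2 signals of the arrays lay between 6.42 and 6.57, and 7191 to 9015 symbols met the threshold on a single array, the fewest on replicate 3. Of 15 markers of embryonic ectoderm and mesoderm, 11 were above background, among them *T*, *Tbx6*, *Mesp1*, *Fgf8*, and *Otx2*, and *Sox1* and *Hesx1* were detected on no array. Only levels of the same gene were compared between arrays, since probes differ in how well they hybridize.

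All 8 apolipoprotein genes were above background on all 3 arrays, and *Mttp* was detected on replicates 1 and 2 alone. Of all symbols in the table, 20.6% were above background by the same rule. Between 27 and 55 beads stood behind each signal of these 9 genes. Levels above the background level of the same array, which is the lowest signal of a single-probe symbol with a detection p above 0 and under 0.01, are described in turn by the part each protein plays.

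**Figure D1:**
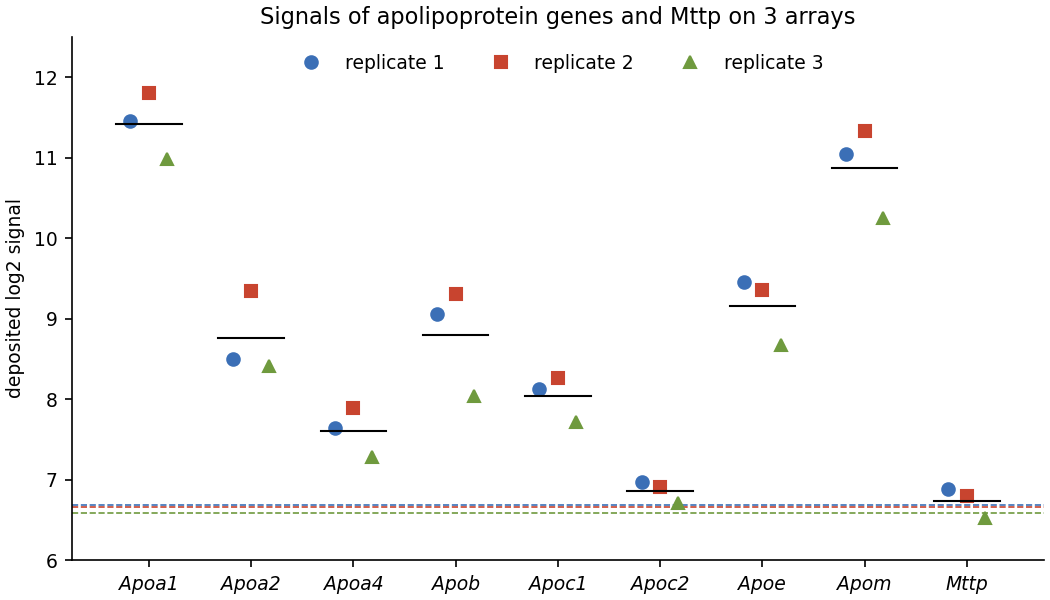
Deposited log2 signals (vertical axis) of 8 apolipoprotein genes and *Mttp* on replicates 1 (circles), 2 (squares), and 3 (triangles), with the mean of the 3 arrays as a bar and the background level of each array as a dashed line in its colour. Replicate 2 gave the highest signal for 6 genes, *Apoa1*, *Apoa2*, *Apoa4*, *Apob*, *Apoc1*, and *Apom*, and *Apoc2* and *Mttp* lay close to the background levels.

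*Apob* encodes the large structural protein of the particles that leave the cell with triglyceride. Its log2 signals as deposited were 9.06, 9.31, and 8.04 on replicates 1, 2, and 3, a mean of 8.80 ± 0.67 (SD, n = 3). These lay 2.37, 2.65, and 1.46 above the background levels of their arrays, so the lowest array still stood clear of background. *Mttp*, whose product lipidates apolipoprotein B, gave log2 signals of 6.89, 6.80, and 6.52. Its detection p was 0.00107 on both of the first arrays. On replicate 3 the detection p was 0.0331 and the signal minus the background level was -0.06. *Mttp* was thus close to background throughout, and a detection p under 0.05, or detection on at least 2 arrays, brought it in.

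The A class is carried mainly by high-density lipoprotein. *Apoa1*, its principal protein and an activator of the enzyme that esterifies cholesterol in plasma, had log2 signals of 11.46, 11.81, and 10.98 (mean 11.42 ± 0.41, SD, n = 3). *Apoa2*, which accompanies it on the particle, had log2 signals of 8.50, 9.35, and 8.42 (mean 8.76 ± 0.51). *Apoa4*, which the adult intestine secretes with dietary fat, had log2 signals of 7.64, 7.89, and 7.28 (mean 7.60 ± 0.30). Replicate 2 was highest and replicate 3 lowest for each of the 3 genes on this scale, which carries the array-wide shift. *Apoa2* and *Apoa4* have at least 2 and 3 probes, and their signals are averages over these.

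Apolipoproteins of the C and E classes exchange between particles. *Apoe*, a ligand through which cells take up particles, had log2 signals of 9.45, 9.35, and 8.67 (mean 9.16 ± 0.42, SD, n = 3). *Apoc1*, which slows the uptake of particles, had log2 signals of 8.12, 8.26, and 7.72 (mean 8.03 ± 0.28). *Apoc2*, the cofactor of lipoprotein lipase, had log2 signals of 6.97, 6.91, and 6.71 (mean 6.86 ± 0.14). Its detection p-values, combined over at least 2 probes, were 2.8e-05, 5.71e-07, and 0.000416. *Apoc2* therefore passed on every array, although its signals lay only 0.28, 0.26, and 0.13 above the background levels. By in situ hybridization, another measure, the study saw *Apoc2* at headfold stages in extraembryonic VE and not in gut endoderm. *Apom*, a lipocalin that carries sphingosine 1-phosphate on high-density lipoprotein, had log2 signals of 11.04, 11.33, and 10.25 (mean 10.87 ± 0.56). It stood at least 3.66 above background on each array.

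To compare the arrays, log2 levels were computed after background correction and quantile normalization, and each array was set against the mean of the other 2. This compares single arrays of 1 group, so there is no test, and each value is given beside the same value over the 6357 symbols above background. Replicate 2 was higher than the mean of the others for all 8 apolipoprotein genes, by a median of 0.50 on the log2 scale (1.41-fold), where the median of all symbols was -0.01. The single differences ran from 0.03 for *Apoc2* to 0.99 for *Apoa2*, and 6 of the 8 genes lay above the 95th percentile of all symbols, 0.38. For 7 of the 8 genes the highest normalized level was on replicate 2, compared with 29.4% of all symbols. The exception was *Apoc2*, whose normalized levels of 5.69, 5.74, and 5.74 spanned 0.05.

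A difference past 1.5-fold (0.58 on the log2 scale) was then counted in each direction. On replicate 2 it was met upward by 2 of the 8 genes, *Apoa2* (0.99) and *Apob* (0.84), and by 1.45% of all symbols. *Apoa4* (0.57) and *Apom* (0.56) lay just short of it. None of the 8 genes was lower on replicate 2 past this fold, against 0.787% of all symbols. On replicate 1 only *Apoa2* was lower past the fold (-1.03), against 0.346% of all symbols, and no gene was higher, against 1.32%. There 4 of the 8 genes, *Apoa1*, *Apoa2*, *Apoa4*, and *Apoc1*, lay below the 5th percentile of all symbols, -0.32. On replicate 3 only *Apob* was lower (-0.83), against 3.65%, and no gene was higher, against 1.31%. It alone lay below the 5th percentile there, -0.52. With 8 genes, a single call is already more than these shares, and each count past the fold rests on the 1 or 2 genes named.

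**Figure D2:**
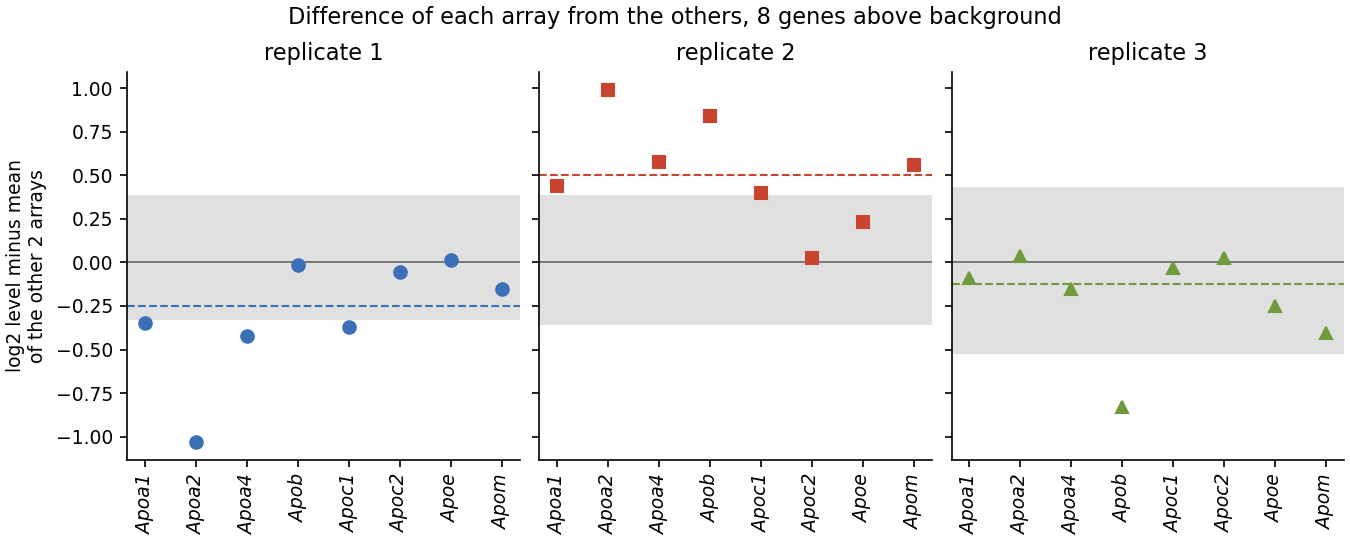
Normalized log2 level of each array minus the mean of the other 2 arrays (vertical axis), 1 panel for each replicate, for the 8 apolipoprotein genes above background. The grey band spans the 5th to 95th percentile of 6357 symbols above background and the dashed line is the median of the 8 genes, 0.50 on replicate 2, with 6 genes above the band.

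The array on which a gene was lowest was not the same for all. *Apoa2* had normalized levels of 7.69, 9.04, and 8.40 on replicates 1, 2, and 3, a 2.55-fold range with replicate 1 at the bottom. *Apob* had levels of 8.42, 8.99, and 7.88, a 2.17-fold range with replicate 3 at the bottom. *Apoa1* (11.14, 11.66, and 11.31), *Apoa4* (6.40, 7.07, and 6.58), and *Apoc1* (7.12, 7.64, and 7.35) were lowest on replicate 1, as *Apoa2* was. *Apom* (10.68, 11.15, and 10.51) and *Apoe* (8.90, 9.05, and 8.73) were lowest on replicate 3, as *Apob* was. Taken relative to the median of all symbols above background, *Apoa2* and *Apoa4* stayed lowest on replicate 1 and *Apob*, *Apom*, and *Apoe* on replicate 3 in all 5 ways of normalizing that were tried. *Apoa1* and *Apoc1* did not, being lowest on replicate 1 in 3 and 4 of the 5. The median SD between arrays was 0.30 for the 8 genes and 0.13 for all symbols above background, and it ran from 0.03 (*Apoc2*) to 0.67 (*Apoa2*).

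The direction on replicate 2 held for all 8 genes in each of the 5 normalizations, with medians from 0.39 to 0.59. The highest level was on replicate 2 for 7 genes in 3 of them and for 6 in the other 2, which centre each array on the median of all symbols and put *Apoe* and *Apoc2* highest on replicate 1. These 2 also turned the sign of the median on replicate 1, from -0.25 to 0.05. They move the symbols above background as a whole, by 0.25 and 0.22 on replicate 1 and by -0.27 and -0.26 on replicate 3. Relative to that shift the 8 genes kept a median of -0.24 to -0.17 on replicate 1 in all 5, of 0.40 to 0.57 on replicate 2, and of -0.24 to -0.11 on replicate 3. For each gene the differences on the 3 arrays cancel in their sum. A rise on replicate 2 therefore lowers the values of the other 2, and the 3 medians are not separate results.

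For genes with a single probe, the deposited standard error over beads gives the technical error of each array. On the deposited scale, centred on the symbols above background, *Apoa1* was higher on replicate 2 than on replicate 1 by 0.55 (standard error over beads 0.13) and than on replicate 3 by 0.50 (0.16). *Apob* was higher on replicate 2 by 0.45 (0.15) and 0.94 (0.15). *Apoc1* was higher by 0.33 (0.12) and 0.21 (0.13), and *Apoe* by 0.10 (0.18) and 0.36 (0.16). The differences for *Apoa1* and *Apob* were thus about 3 or more times their bead error, while *Apoe* on replicates 1 and 2 could not be told apart. Between replicates 3 and 1 *Apob* differed by -0.49 (0.14), and *Apoa1* by 0.05 (0.15) and *Apoc1* by 0.11 (0.12), within bead error. This error leaves out the labelling and the embryos. For *Mttp* replicate 2 lay 0.11 (0.09) above replicate 1 and 0.05 (0.08) below replicate 3 (-0.05). Replicate 3 lay 0.16 (0.08) above replicate 1, with all signals close to background. This scale takes off the median of symbols above background, 8.02 on replicate 1 and 7.50 on replicate 3. After normalization *Mttp* was lower on replicate 3 than on replicate 1 (-0.09), so its order depends on the scale.

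Several of these genes are neighbours. In the RefSeq annotation of the assembly GRCm38.p6, *Apoa1*, *Apoc3*, *Apoa4*, and *Apoa5* follow each other on chromosome 9, and *Apoc2*, *Apoc4*, *Apoc1*, and *Apoe* lie together on chromosome 7. In the first cluster *Apoc3*, an inhibitor of lipoprotein lipase, had log2 signals of 7.03, 7.29, and 6.81, with a detection p of 0 on each array. It was higher on replicate 2 by 0.35 after normalization, beside 0.44 for *Apoa1* and 0.57 for *Apoa4*. *Apoa5* was detected on no array. In the second cluster replicate 2 was higher by 0.40 for *Apoc1*, 0.23 for *Apoe*, and 0.03 for *Apoc2*, and *Apoc4* was detected on no array. Both clusters therefore held genes above background beside a gene that was not detected.

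The bases before the transcription start are shown for *Apoa4*, *Apob*, and *Apom*, whose differences on replicate 2 were 0.57, 0.84, and 0.56, and for *Apoc2*, whose difference was 0.03. Sequences are from RefSeq (GRCm38.p6), which had entries for 8 of the 9 genes, and each line gives 200 bases, 5′ to 3′ on the strand of the gene, ending at the base before the start. Capitals mark matches on either strand to CAAAGNNCA, a form of the site of the hepatocyte factor HNF4, to the nuclear receptor half-site AGGTCA with its variant GGGTCA, or to the TATA box TATAAA. None of these overlap in the lines below. The windows are chr9:46240644-46240843 (plus strand), chr12:7977477-7977676 (plus strand), chr17:35131802-35132001 (minus strand), and chr7:19677942-19678141 (minus strand).
Apoa4: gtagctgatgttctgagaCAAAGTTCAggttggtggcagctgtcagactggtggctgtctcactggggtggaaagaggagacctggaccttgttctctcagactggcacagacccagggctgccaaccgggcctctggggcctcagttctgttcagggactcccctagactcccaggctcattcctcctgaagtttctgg
Apob: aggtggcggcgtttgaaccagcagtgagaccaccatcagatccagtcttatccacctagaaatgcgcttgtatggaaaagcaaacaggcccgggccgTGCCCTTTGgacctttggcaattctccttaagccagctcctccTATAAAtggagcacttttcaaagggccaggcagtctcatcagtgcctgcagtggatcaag
Apom: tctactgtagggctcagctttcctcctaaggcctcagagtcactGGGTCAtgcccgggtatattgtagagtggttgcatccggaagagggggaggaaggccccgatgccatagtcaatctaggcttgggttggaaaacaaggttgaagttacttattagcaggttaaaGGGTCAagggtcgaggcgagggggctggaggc
Apoc2: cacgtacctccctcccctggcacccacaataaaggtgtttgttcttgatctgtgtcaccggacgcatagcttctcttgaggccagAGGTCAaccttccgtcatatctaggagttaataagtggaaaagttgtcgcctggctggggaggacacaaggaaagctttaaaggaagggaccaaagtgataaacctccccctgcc

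Over 250 bases before each of 32851 RefSeq starts, CAAAGNNCA was found in 5.49%, AGGTCA in 14.0%, GGGTCA in 11.6%, and TATAAA in 12.4%. *Apoa4* held CAAAGNNCA at 182 bases before the start, and *Apob* held it at 103 bases, on the other strand, together with TATAAA at 60 bases. *Apom* held GGGTCA at 156 and at 32 bases before the start, and *Apoc2* held AGGTCA at 115 bases. *Apoa2* held AGGTCA at 238 bases before one start and TATAAA at 212 bases before another. *Apoe* held GGGTCA at 28 bases before one start and TATAAA at 96 and, on the other strand, at 100 bases before another. None of the 4 was found before *Apoa1* or *Mttp*. Each match is a run of letters and was not tested as a site.

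Genes that build and export lipoprotein were in part above background, 15 of the 36 listed symbols in the table. *P4hb*, the partner of MTP in the transfer complex, had log2 signals of 12.58, 12.30, and 11.86 and a normalized difference of 0.00 on replicate 2. *Sar1b*, *Sar1a*, *Sec13*, *Sec23a*, *Sec24c*, and *Sec31a*, which form the coat of vesicles leaving the endoplasmic reticulum, were above background, as was *Surf4*, a cargo receptor for lipoprotein, with a difference of 0.31 on replicate 2. The median difference of the 15 symbols on replicate 2 was -0.04 (-0.04 to 0.01 over the 5 normalizations, so without a settled sign), and none was past 1.5-fold there. *Dgat2*, which makes triglyceride, was above background, with log2 signals of 8.58, 8.66, and 8.27. *Apobec1*, the enzyme that edits *Apob* mRNA, was detected on no array, with detection p-values of 0.525, 0.574, and 0.0160.

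Among the receptors and uptake genes, 11 of 22 symbols were above background, and their median difference on replicate 2 was 0.24. Those with the largest differences were *Cubn* (0.68), which binds apolipoprotein A-I, *Npc2* (0.60), which moves cholesterol out of lysosomes, *Dab2* (0.55), an endocytic adaptor, and *Amn* (0.37), the partner of cubilin. The receptor *Lrp2* (megalin) had log2 signals of 7.77, 7.60, and 6.98 averaged over at least 4 probes, 1.08, 0.95, and 0.40 above the background levels. Its detection p, combined over these probes, was 0.0380, 0.129, and 0.490, so it did not meet the rule although its averaged signal exceeded background. Of 19 symbols for lipid efflux, exchange, and lipases, *Lmf1* and *Pon2* met the detection rule. *Abca1* and *Lipc* were detected on no array and *Lcat* on replicate 1 alone. *Lpl*, which encodes lipoprotein lipase, did not meet the rule either, with a detection p combined over at least 2 probes of 0.160, 0.411, and 0.0470. Its averaged log2 signals nevertheless lay 1.32, 1.34, and 1.17 above the background levels, so the call for *Lpl* rests on how probes are combined. The counts of the lists share this limit for symbols with several probes. Of 23 symbols for lipid synthesis and binding, 7 were above background, with a median difference on replicate 2 of -0.12.

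Transcription factors known to act on apolipoprotein genes were above background for 9 of 26 symbols. *Hnf4a*, which drives many of them in liver and VE, had log2 signals of 7.75, 7.51, and 7.15 and a normalized difference of -0.01 on replicate 2. *Foxa3* was the only one of the 9 past 1.5-fold on replicate 2, by 0.69, with log2 signals of 8.94, 9.14, and 8.06, and *Foxa1* differed by 0.28. The median of the 9 was -0.01 on replicate 2, and it changed sign with the normalization, between -0.01 and 0.04.

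**Figure D3:**
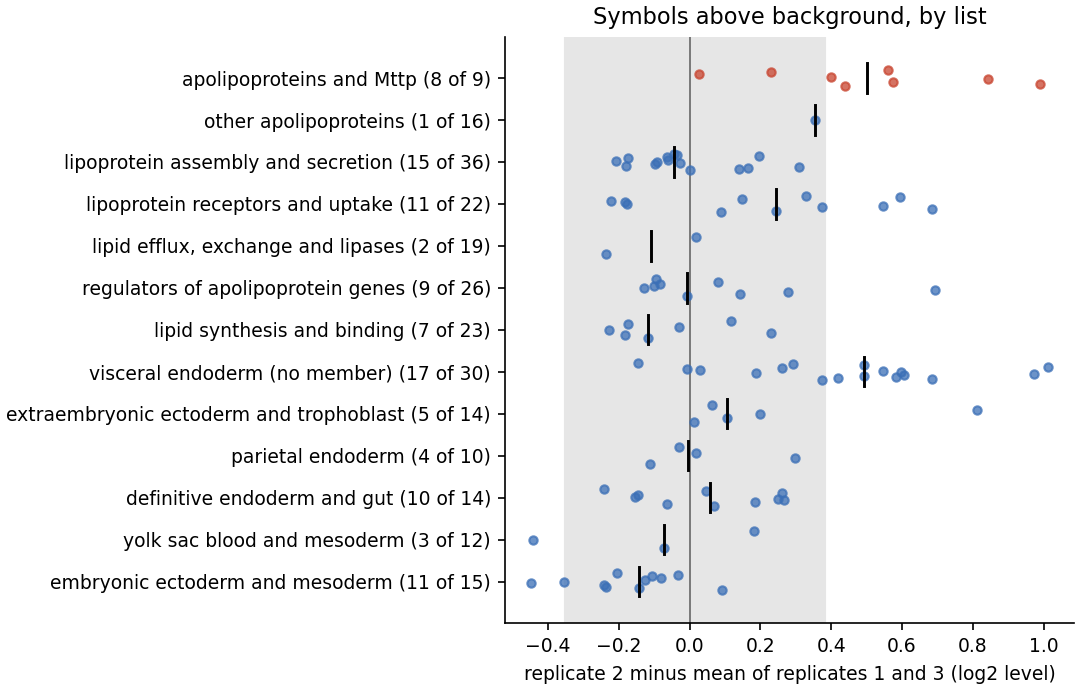
Normalized log2 level on replicate 2 minus the mean of replicates 1 and 3 (horizontal axis) for symbols above background, by list, with the median of each list as a bar and the number above background of those in the table in brackets. The grey band spans the 5th to 95th percentile of single symbols above background and is no measure for the medians, which were 0.50 for the apolipoprotein genes and 0.49 for the other VE markers.

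On replicate 2 the other VE markers were higher, as these genes were. Of 30 markers that are not among the 9 genes, 17 were above background, and 15 of the 17 had a difference above 0 on replicate 2, with a median of 0.49. Those with the largest differences were *Cldn2* (1.01), a tight junction protein, *Fga* (0.97), the fibrinogen alpha chain, *Cubn* (0.68), and *Ttr* (0.61), the carrier of thyroid hormone and retinol. The mean log2 signal of the 17, centred on all symbols above background, was 0.84, 1.11, and 0.66 on replicates 1, 2, and 3. On the other arrays the 2 sets were less alike. The median difference of the 17 was -0.10 on replicate 1, against -0.25 for the 8 apolipoprotein genes, and -0.34 on replicate 3, against -0.12. Of the 17, 12 were lowest on replicate 3 and 4 on replicate 1, against 3 and 5 of the 8 genes. Of the 30 VE markers, 9 were detected on no array, *Alb*, *Ahsg*, *Fgb*, *Serpina1a*, *Tdo2*, *F5*, *S100g*, *Ctsc*, and *Lrp2*. Genes of liver plasma proteins stood on both sides, since *Ttr*, *Trf*, *Rbp4*, *Fga*, *Fgg*, *Serpinf2*, and *F10* were above background. *Afp* was detected on replicates 1 and 2 alone. *Cubn*, *Amn*, *Dab2*, *Lrp2*, and *Hnf4a* stand in this list and in those above. In bulk RNA a larger share of VE cells and more RNA for each VE cell cannot be told apart, and the part of either in the differences of the apolipoprotein genes was not tested.

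Other tissues gave smaller medians on replicate 2. The 10 markers of definitive endoderm and gut above background, among them *Sox17*, *Trh*, and *Cldn6*, had a median of 0.06. They ran from -0.24 for *Otx2* to 0.27 for *Trh*. The study found Sox17 protein in gut endoderm cells of VE and of definitive endoderm origin, so this list is not free of VE. The 11 markers of embryonic ectoderm and mesoderm, *Otx2* again among them, had a median of -0.14, and 1 of them was higher on replicate 2. The 4 markers of parietal endoderm had -0.01, a sign that changed with the normalization (up to 0.05), and the 5 of extraembryonic ectoderm 0.10, with *Rhox5* at 0.81. The 3 of yolk sac blood and mesoderm, *Tal1*, *Etv2* (*Etsrp71* in the table), and *Lmo2*, had -0.07, and the embryonic globins *Hbb-bh1*, *Hba-x*, and *Hbb-y* were detected on no array. On replicate 3 the VE markers had a median of -0.34, between -0.45 and -0.34 over the 5 normalizations when taken relative to all symbols.

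**Figure D4:**
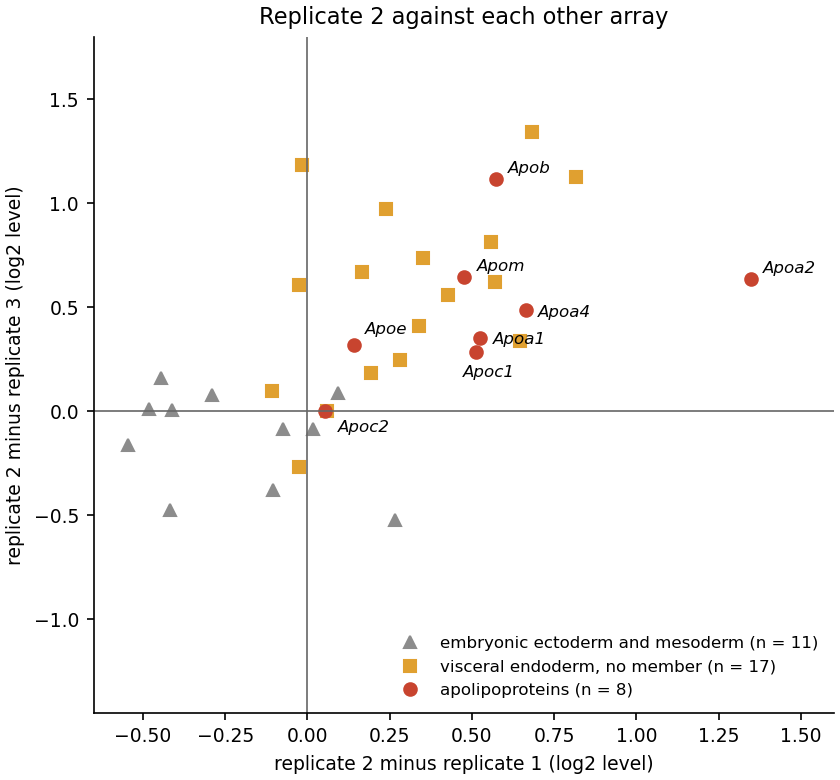
Normalized log2 level on replicate 2 minus replicate 1 (horizontal axis) and minus replicate 3 (vertical axis) for 8 apolipoprotein genes (circles), 17 other VE markers (squares), and 11 markers of embryonic ectoderm and mesoderm (triangles), all above background. *Apoa2* lies farthest to the right at 1.35, *Apob* highest of the apolipoprotein genes at 1.12, and *Apoc2* near the origin.

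The median profile of the 8 genes over the 3 arrays was -0.17, 0.33, and -0.08 around each gene's mean. *Apoa1* lay at a distance of 0.08 from it, *Apoc1* at 0.12 and *Apoa4* at 0.13, whereas *Apob* lay at 0.55 and *Apoa2* at 0.62. Of the other 6349 symbols above background, 286 lay within 0.20. The 10 nearest, at 0.05 to 0.07, were *Lgals2*, *Slc25a16*, *Ccdc99*, *Cs*, *Rpl36a*, *Ccdc124*, *Atp1b1*, *LOC100048384*, *Nola2*, and *1110021J02Rik*. None of them is in the lists used here, and with 3 arrays a profile has few ways to differ.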

How the data were processed

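Biotin-labelled cRNA, made from total RNA of the embryonic region at the EHF stage, was hybridized to 3 Illumina Mouse-6 bead arrays. The authors deposited 1 row for each gene symbol, with log2 signals that were averaged over probes and not normalized between arrays, and the labels name Partek as their software. The genome build and the software version are not given in the sources used here. The deposited detection p-value compares a symbol with the negative controls of its array and moves in steps of 1 in 936 for a single probe. The deposited standard error over beads was read as an intensity on the linear scale, because values above 100 could not be log2 errors, and was set to log2 by division by the signal. The deposited table also gives mean bead numbers, from which the least number of probes was inferred. No column was without a sample.

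Signals were corrected with normexp (limma 3.58.1 in R 4.3.3) from the detection p of single-probe symbols, an offset of 16 was added, and arrays were quantile normalized. The procedure was checked on simulated data, with shifts set only in symbols well above background. The check therefore does not cover genes close to background, such as *Apoc2* and *Mttp*. Symbols in 12 lists were matched through RefSeq synonyms, 246 of 256 list entries with the 9 members included, and some symbols stand in more than 1 list. Named from each list were up to 4 symbols with the largest difference on replicate 2, partners fixed by name, and the 10 nearest profiles. Further symbols were named after their values were seen, to say which were detected. Some items are not reported here. The members and lists were chosen with earlier results of these data known. No test was run, since there is 1 group. The number of arrays limits the precision. Python 3.11.15, numpy 2.4.6, and pandas 2.3.3 were used.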

Additional observations from a re-analysis of the deposited data

How the results depend on the processing

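The number of the 9 genes above background was 8 or 9 under other detection rules, and 8 to 9 without a replicate, with *Mttp* the gene that came in. Of all 30854 symbols, 5249 to 10172 were above background under these rules, and 6524 to 7427 without a replicate. The median difference on replicate 2 stayed within 0.39 to 0.59 under other normalizations, and was 0.41 to 0.52 without a replicate. On replicate 1 the median of -0.25 became 0.046 after normexp with median scaling and 0.048 with deposited signals centred on array medians, and on replicate 3 the median of -0.12 became -0.51 and -0.46. These settings shift all symbols above background, by 0.25 and 0.22 on replicate 1 and -0.27 and -0.26 on replicate 3. Without a replicate the median was -0.52 to -0.11 on replicate 1 and -0.41 to 0.11 on replicate 3, the last without replicate 2, so the sign on replicate 3 rests on that array.

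Past 2-fold in place of 1.5-fold, *Apoa2* alone was counted on replicate 1, against 0.126% of all symbols. On replicates 2 and 3, 0 genes were counted, against 0.126% and 0.771%. Without a replicate the genes past 1.5-fold in either direction numbered 1 to 2 on replicate 1 (2 without replicate 3) and 2 to 3 on replicate 2. On replicate 3 they numbered 3 without replicate 1, all lower. Without replicate 2 it was 1 gene, which was higher, where the main setting had 1 lower, *Apob*. Of all symbols, 2.08% to 6.54% were past the fold without a replicate, against 1.67% to 4.96% in the main setting. The other alternatives, 35 of 44, kept the value within the spread between arrays (0.30) or the count, taken over both directions, within 1.5 times. This limit is loose, since 0.30 exceeds the size of the main medians on replicate 1 (-0.25) and replicate 3 (-0.12). A median of -0.52 on replicate 1 without replicate 3 still counted as kept, as did -0.41 on replicate 3 without replicate 1. The count of 8 of 9 genes above background had no room to rise 1.5 times. The tally therefore says little about these results. No paired analysis was possible because all 3 arrays belong to 1 group. For *Apoc2* and *Mttp* the low signal over background limits what a difference between arrays can show.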
